A study of Homo sapiens with 6 samples.

Results

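The genes described here are the subunits of the cohesin ring, its loading factors, the PDS5 proteins that bind it and the insulator protein CTCF, taken from the deposited gene counts by symbol. All 10 listed genes (RAD21, SMC1A, SMC3, STAG1, STAG2, NIPBL, MAU2, PDS5A, PDS5B and CTCF) were among the 40173 genes of the table, and all 10 were among the 15250 genes that passed the filter on low counts. The libraries came from A549, a human lung adenocarcinoma cell line. Cells of 1 line received either a negative control (3 libraries) or an siRNA against FAM83H-AS1, a long noncoding RNA (3 libraries, called silenced), and total RNA was collected a day after transfection. Which of the designed siRNAs was used for sequencing is not given in the sources used here, and nothing in the labels says whether libraries of a group came from separate cultures, so that p-values measure only the spread between these libraries.

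Cohesin is a ring-shaped complex that holds sister chromatids together from DNA replication to mitosis and that also extrudes chromatin loops in interphase. SMC1A and SMC3 form the long arms of the ring with their ATPase heads, RAD21 (the kleisin) closes it, and either STAG1 or STAG2 binds to RAD21. NIPBL with MAU2 loads the ring on chromatin, PDS5A or PDS5B joins it and recruits factors that either release or lock it, and CTCF bound to DNA stops the moving ring at loop anchors. RAD21 is also the subunit that separase cuts at anaphase.

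FAM83H-AS1, the target, was at 14.5, 16.0 and 17.3 CPM (count per mega-count of the library, after TMM normalization) in control replicates 1, 2 and 3, and at 4.59, 4.44 and 5.57 CPM in silenced replicates 1, 2 and 3. Its mean was 30.6% of the control mean, a log2 fold change of -1.70 (SE, the standard error, 0.148, edgeR adjusted p = 7.99e-05), so that the libraries matched their labels. Library totals ranged from 9738291 to 17742643 counts. Of the 5 epithelial markers, KRT8 and KRT18 summed with KRT19, EPCAM and CDH1 to between 2930 and 3450 CPM in control libraries, against a range between 2590 and 2620 CPM in silenced libraries, with KRT19, EPCAM and CDH1 at a few CPM or less. KRT18 was lower after silencing (log2 fold change -0.43, edgeR adjusted p = 0.00266), and its part in other values was not tested. The other epithelial markers were not called, and they did not all go 1 way. KRT8 was at -0.20 (edgeR adjusted p = 0.121), KRT19 at -0.36 and EPCAM at -0.17. CDH1 was at 0.82 (edgeR adjusted p = 0.112), from at most 19 counts in a library. The 4 markers of alveolar type 2 cells summed to at most 1.46 CPM in any library, and SFTPA1 had 0 counts in all 6 libraries.

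Among the cohesin genes, RAD21 fell after FAM83H-AS1 silencing, STAG1 and STAG2 rose, and the other 7 did not pass the test. With edgeR and Benjamini-Hochberg adjustment over every gene tested, 3 of the 10 genes passed 0.05, 1 of them lower and 2 higher. Of all genes tested, 17.0% were called at this threshold, 8.27% lower and 8.75% higher. No cohesin gene passed a fold change of 2 as well, a rule that 2.14% of all genes met. For 5 of the 10 genes (RAD21, SMC1A, STAG1, STAG2 and PDS5A) every silenced library lay on one side of every control library, against 36.6% of all genes tested. The median log2 fold change of the 10 genes was 0.11, beside -0.00 over all genes tested. These counts are not far from the background, and nothing is read from them about the group. The results below concern single genes.

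RAD21, which encodes the kleisin that closes the ring, had the largest change of the 10 genes. It was at 247, 254 and 233 CPM in control replicates 1, 2 and 3 and at 150, 150 and 145 CPM in silenced replicates 1, 2 and 3, from 2406, 2938 and 3949 counts against 1532, 1620 and 1949 counts. All silenced libraries lay far below all control libraries, and the spread within each group was small. In bulk RNA, less RAD21 mRNA per cell and fewer cells with RAD21 mRNA cannot be told apart. The mean of 245 ± 10.4 CPM in control libraries fell to 148 ± 2.79 CPM (SD, n = 3 each), or 60.5%. On the log2 scale this is -0.73 (SE 0.0676, 95% interval -0.87 to -0.58, edgeR adjusted p = 1.17e-04), and by p-value RAD21 was at rank 40 of the 15250 genes, where FAM83H-AS1 was at rank 28. Fits without each library in turn gave log2 fold changes of -0.76 to -0.70 for RAD21, with edgeR adjusted p from 2.07e-04 to 0.00192.

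In GENCODE 29 (GRCh38), RAD21 lies on the minus strand of chromosome 8 from 116845935 to 116874866. It is 26.9 Mb from the locus of FAM83H-AS1 on the same chromosome. The position of that locus was taken from IQANK1, the gene used to stand for it in this release. The counts themselves were made on GRCh37 according to the submitters' processing notes. Of the 3749 bases of the main RAD21 transcript, 340 overlap exons of other genes, namely MIR3610 on the same strand and RAD21-AS1 and UTP23 on the opposite strand. Without knowledge of the strand in counting, reads of these overlaps cannot be told apart, and their part in the RAD21 value was not tested. The counts of the other genes come from the same counting. RAD21-AS1 had at most 4 counts in a library, and UTP23, which encodes a factor of ribosome biogenesis, had between 146 and 306 counts. The miRNA MIR3610, which lies in a RAD21 exon, had 14, 9 and 14 counts in control libraries, against 1, 5 and 1 counts in silenced libraries, and was below the filter.

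The 8 genes listed as neighbours of RAD21 on the chromosome gave mixed values. Of these, 5 were tested, and 1 passed the test, upward, beside 17.0% of all genes tested that were called. EXT1, a glycosyltransferase of heparan sulfate synthesis, was at 29.2, 27.8 and 30.0 CPM in control libraries and rose to 39.3, 39.4 and 39.4 CPM in silenced libraries, with a log2 change of 0.44 (SE 0.0801, edgeR adjusted p = 0.005). UTP23 had a log2 fold change of -0.27 (edgeR adjusted p = 0.114) and EIF3H, a subunit of translation initiation factor 3, one of 0.20 (edgeR adjusted p = 0.083). TRPS1 (0.02) and MED30 (-0.03) had values near 0, AARD and SLC30A8 had 0 counts in all libraries, and RAD21-AS1 was below the filter.

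**Figure D1:**
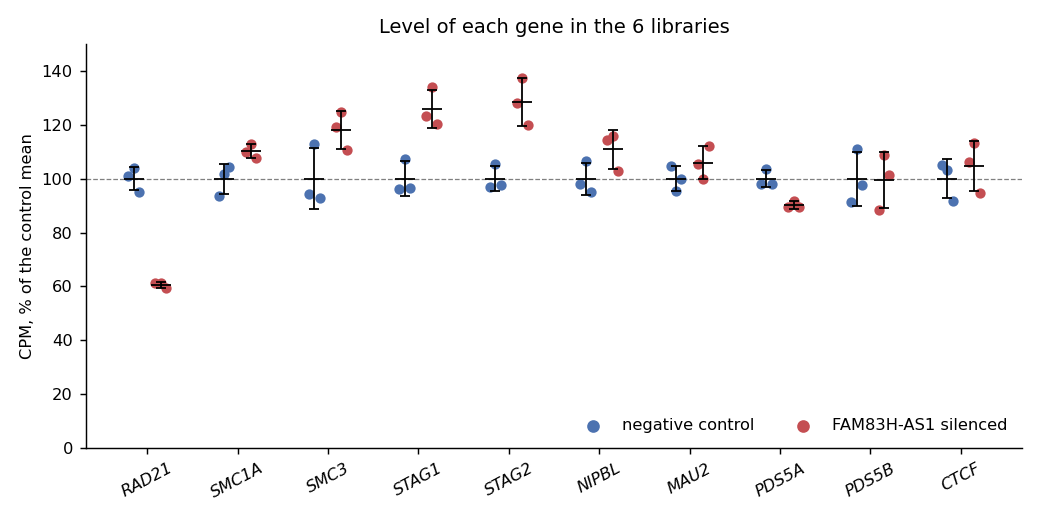
CPM of each of the 10 genes in each library as a percentage of the control mean of that gene, with control libraries in blue, silenced libraries in red, and black lines for the mean and SD of 3 libraries. RAD21 in the silenced libraries lies at about 60.5% of its control mean, STAG1 and STAG2 lie at 126% and 129%, and the means of the other genes lie between 90.1% and 118%.

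STAG2, the more abundant of the paralogous subunits that bind RAD21, was at 127, 138 and 128 CPM in control replicates 1, 2 and 3 and at 168, 180 and 157 CPM in silenced replicates 1, 2 and 3. The groups did not overlap. Its mean of 131 ± 6.07 CPM rose to 168 ± 11.2 CPM (SD, n = 3 each), with a log2 change of 0.36 (SE 0.0762, edgeR adjusted p = 0.00981), and the call held with any 1 library left out (log2 fold change 0.31 to 0.41). STAG1 was at 29.5, 33.0 and 29.6 CPM in the control libraries and at 37.9, 41.1 and 36.9 CPM in the silenced libraries, again without overlap. It rose by a similar amount, with a log2 fold change of 0.33 (SE 0.0883, edgeR adjusted p = 0.0265). Its call held in only 2 of the 6 fits with 1 library left out. These were without control replicate 2 (log2 fold change 0.39, edgeR adjusted p = 0.0357) and without silenced replicate 3 (0.36, edgeR adjusted p = 0.0428). Without control replicate 1 or 3, or without silenced replicate 1 or 2, the adjusted p of STAG1 by edgeR was 0.0684, 0.0903, 0.0752 and 0.0683, at log2 fold changes between 0.29 and 0.35.

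Exons of the STAG1 transcript overlap those of PCCB, on the opposite strand, over 1664 of 6055 bases. PCCB, which encodes a subunit of propionyl-CoA carboxylase, was at 84.4 ± 3.95 CPM in the control and 93.6 ± 7.86 CPM in the silenced libraries (SD, n = 3 each), with a log2 change of 0.15 (edgeR adjusted p = 0.246). Whether the counting used the strand is not given in the sources used here, so that reads of the overlap cannot be told apart, and the part of PCCB in the STAG1 value was not tested. For STAG2 the overlap with another gene was 28 bases.

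The ratio of STAG1 to STAG2 counts within a library needs no scaling between libraries. It was 0.233, 0.239 and 0.231 in control libraries, against 0.226, 0.229 and 0.235 in silenced libraries, with overlapping groups. The difference on the log2 scale was -0.03 (SE 0.0223, two-sided exact permutation test over 3 libraries against 3, p = 0.3, where the smallest p possible is 0.1). No shift of any size could have passed 0.05 in this design, and the test does not show that the ratio stayed the same.

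The promoter windows of both STAG genes are shown because these paralogs were the members that rose together. They were taken from RefSeq (GRCh38.p14), run from 250 bases before to 50 bases after an annotated start, and are printed 5′ to 3′ on the strand of the gene. The window of STAG1 is chr3:136752329-136752628 (minus strand, 71.3% G or C) and the first of 3 windows of STAG2 is chrX:123960310-123960609 (plus strand, 67.3% G or C). Capitals mark matches on either strand to the CCAAT box (CCAAT), the GC box (GGGCGG), the core of ETS sites (CGGAAG) and the sequence GATGGCG, and no matches overlap.
STAG1: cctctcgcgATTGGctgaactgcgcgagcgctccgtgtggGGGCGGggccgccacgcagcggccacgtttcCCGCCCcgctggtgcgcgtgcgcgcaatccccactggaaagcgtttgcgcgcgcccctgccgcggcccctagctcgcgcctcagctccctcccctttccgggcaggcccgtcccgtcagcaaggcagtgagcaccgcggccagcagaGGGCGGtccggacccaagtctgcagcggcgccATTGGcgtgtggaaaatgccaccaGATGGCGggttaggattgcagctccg
STAG2: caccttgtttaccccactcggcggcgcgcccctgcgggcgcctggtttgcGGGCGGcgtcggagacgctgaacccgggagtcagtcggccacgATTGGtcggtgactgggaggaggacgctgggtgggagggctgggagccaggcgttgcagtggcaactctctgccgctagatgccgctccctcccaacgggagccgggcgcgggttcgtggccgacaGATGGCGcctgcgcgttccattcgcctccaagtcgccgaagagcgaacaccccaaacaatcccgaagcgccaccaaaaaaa
The STAG1 window held CCAAT 2 times, GGGCGG 3 times and GATGGCG 1 time, and the STAG2 window held each of them 1 time. CGGAAG was in neither. The other STAG2 windows differed from the first. The second, which starts at 123961062, held GGGCGG 1 time and none of the other motifs, and the third, which starts at 123961808, held CCAAT 2 times, GGGCGG 2 times, CGGAAG 1 time and no GATGGCG. Among 35116 promoter windows of the same length, 34.6% held CCAAT, 45.0% held GGGCGG, 19.5% held CGGAAG and 4.20% held GATGGCG. The last of these was picked after the printed sequences had been read, and among the 12 windows of the 9 members matched in the promoter table it was also in that of CTCF. GGGCGG was in all 12 windows, and CCAAT was also in those of PDS5A and PDS5B, which were not called. These matches describe the letters of the windows and say nothing of binding.

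The arms of the ring did not pass the test. SMC1A was at 646, 702 and 719 CPM in control libraries, against 757, 778 and 743 CPM in silenced libraries, so that the groups did not overlap, but the interval of the difference included 0 (log2 fold change 0.14, 95% interval -0.01 to 0.29, edgeR adjusted p = 0.184). SMC3 was at 121, 145 and 119 CPM in control libraries, against 153, 160 and 142 CPM in silenced libraries. Control replicate 2 overlapped the silenced libraries, and the log2 fold change was 0.24 (95% interval 0.04 to 0.44, edgeR adjusted p = 0.0955). Without control replicate 2, SMC3 had a log2 fold change of 0.33 and an adjusted p of 0.0365 by edgeR.

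The ratio of RAD21 counts to those of each other core subunit was taken within each library, after the values above had been seen, and was lower in every silenced library. The ratio of RAD21 to SMC3 was 2.04, 1.74 and 1.96 in control libraries, against 0.975, 0.939 and 1.02 in silenced libraries. The ratio of RAD21 to STAG2 was 1.87 ± 0.0680 in control and 0.883 ± 0.0443 in silenced libraries (SD, n = 3 each). The log2 differences were -0.87 for RAD21 to SMC1A, -0.97 to SMC3, -1.06 to STAG1 and -1.09 to STAG2, with SEs between 0.0518 and 0.0755. Since the ratios were formed after these genes had been seen to differ, they restate the values above on another scale and are given as a description, with no test.

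**Figure D2:**
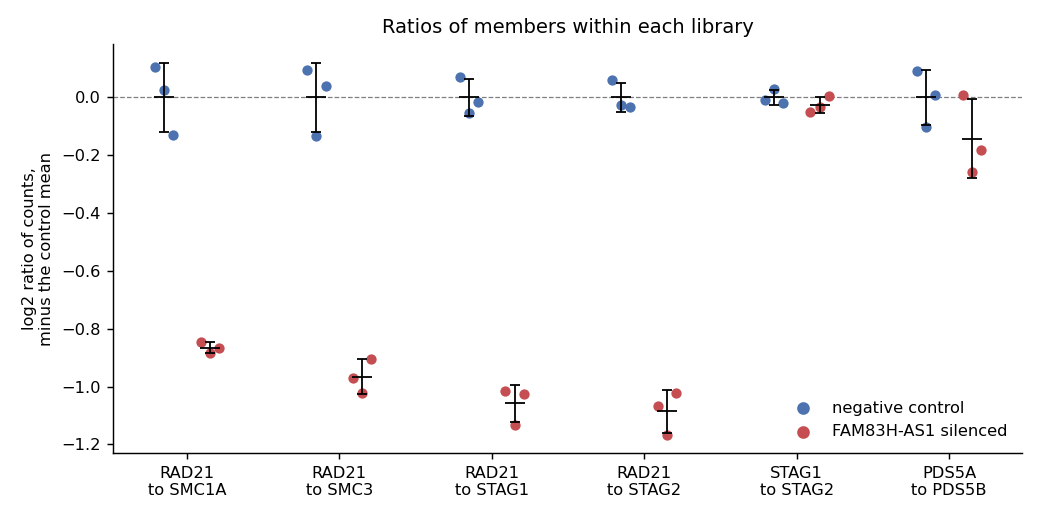
Log2 ratio of the counts of a pair of genes within each library, minus the control mean of that ratio, with control libraries in blue, silenced libraries in red, and black lines for the mean and SD of 3 libraries. The ratios of RAD21 to SMC1A, SMC3, STAG1 and STAG2 average -1.09 to -0.87 in the silenced libraries, while the ratios of STAG1 to STAG2 and of PDS5A to PDS5B overlap between the groups.

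The loaders and CTCF did not pass the test. NIPBL was at 200 ± 12 CPM in the control and 221 ± 14.3 CPM in the silenced libraries (SD, n = 3 each), with a log2 change of 0.15 (95% interval -0.02 to 0.32, edgeR adjusted p = 0.206). Its partner MAU2 was at 70.1 ± 3.18 and 74.3 ± 4.32 CPM (SD, n = 3 each), with a log2 change of 0.08 (95% interval -0.09 to 0.26). CTCF was at 68.7, 67.6 and 60.0 CPM in the control libraries and at 69.4, 74.0 and 61.9 CPM in the silenced libraries, with a log2 fold change of 0.07 (95% interval -0.13 to 0.26). The groups overlapped for all of these genes, and the intervals leave room for changes of up to 0.32 on the log2 scale.

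PDS5A and PDS5B, which also bind the ring, did not pass the test either. PDS5A was at 124, 131 and 124 CPM in control libraries, against 113, 116 and 113 CPM in silenced libraries, without overlap, and had a log2 fold change of -0.15 (SE 0.0685, edgeR adjusted p = 0.155). PDS5B was at 33.7 ± 3.36 and 33.5 ± 3.50 CPM (SD, n = 3 each), with a log2 change of -0.01 (95% interval -0.24 to 0.22). The ratio of PDS5A to PDS5B was 3.77 ± 0.249 in the control and 3.42 ± 0.333 in the silenced libraries (SD, n = 3 each), and its log2 difference of -0.14 (SE 0.0969) had overlapping groups (two-sided exact permutation test, p = 0.3).

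Apart from RAD21, the members lie on other chromosomes than FAM83H-AS1 (GENCODE 29, GRCh38). SMC1A is on chromosome X from 53374149 to 53422728 and STAG2 on the same chromosome from 123960212 to 124422664. SMC3 is on chromosome 10 from 110567691 to 110604636, STAG1 on chromosome 3 from 136336233 to 136752403 and NIPBL on chromosome 5 from 36876759 to 37066413. MAU2 is on chromosome 19 from 19320681 to 19358755, PDS5A on chromosome 4 from 39822863 to 39977956, PDS5B on chromosome 13 from 32586427 to 32778019 and CTCF on chromosome 16 from 67562407 to 67639185. Exons of SMC3, NIPBL, PDS5A, PDS5B and CTCF overlapped no exon of another gene, and those of SMC1A and MAU2 overlapped RIBC1 and SUGP1 over 39 and 164 bases.

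To set the levels of different genes side by side, CPM was divided by the length in kb of the main GENCODE 29 transcript of each gene. In the control libraries the order of levels per kb was SMC1A (70.4 ± 3.91), RAD21 (65.3 ± 2.76), SMC3 (31.3 ± 3.54), STAG2 (21.6 ± 1.0), NIPBL (19.1 ± 1.15), PDS5A (17.6 ± 0.590), CTCF (16.4 ± 1.19), MAU2 (14.0 ± 0.637), STAG1 (5.07 ± 0.330) and PDS5B (4.50 ± 0.448 CPM per kb, SD, n = 3 each). SMC1A overlapped with RAD21, NIPBL with PDS5A and STAG1 with PDS5B over the control libraries, while each other pair of neighbours in this order was separate. In the silenced libraries RAD21 was at 39.5 ± 0.743 CPM per kb, below every SMC1A value and overlapping with SMC3 at 36.9 ± 2.16 CPM per kb (SD, n = 3 each). The summed level of STAG1 and STAG2 was 26.7 ± 1.33 CPM per kb in the control and 34.2 ± 2.20 CPM per kb in the silenced libraries (SD, n = 3 each), which in both groups was below RAD21. Reads from other annotated transcripts of a gene are not separated by this scaling.

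**Figure D3:**
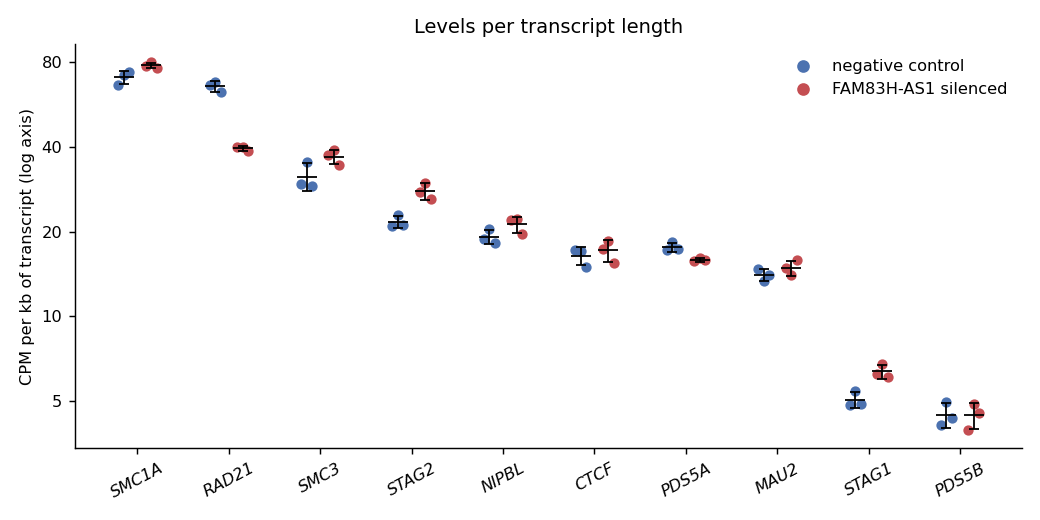
CPM per kb of the main transcript for each gene on a log axis, ordered by the mean over all libraries, with control libraries in blue, silenced libraries in red, and black lines for the mean and SD of 3 libraries. RAD21 lies at 65.3 CPM per kb in the control libraries beside SMC1A and at 39.5 CPM per kb in the silenced libraries beside SMC3.

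Of 18 factors that establish, protect, release or cleave cohesion, all tested, 2 passed the same threshold, ESCO2 upward and PLK1 downward. Among all genes tested, 17.0% passed it. The list had a median log2 fold change of 0.07, beside -0.00 over all genes tested. ESCO2, an acetyltransferase that modifies SMC3 during replication, was at 20.8, 24.8 and 22.5 CPM in the control libraries and at 30.9, 39.8 and 30.2 CPM in the silenced libraries. It rose by 0.56 on the log2 scale (SE 0.122, edgeR adjusted p = 0.0109), and its call held with any 1 library left out. ESCO1, the related acetyltransferase, had a log2 fold change of 0.34 (edgeR adjusted p = 0.07). PLK1, a mitotic kinase that promotes the release of cohesin from chromosome arms, fell to 162 ± 3.33 CPM in silenced libraries, against 192 ± 10.5 CPM in control libraries (SD, n = 3 each), with a log2 change of -0.24 (edgeR adjusted p = 0.0371). This call was lost in 5 of the 6 fits with 1 library left out, with adjusted p-values by edgeR between 0.0712 and 0.105 (without control replicate 1 or 2 or any silenced replicate), and without scaling for composition (edgeR adjusted p = 0.0836). The log2 fold change of PLK1 stayed between -0.27 and -0.20 with 1 library left out and was -0.21 without that scaling.

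Other factors that act on the ring did not pass the test. WAPAL, the symbol in the table for the release factor WAPL, had a log2 fold change of 0.17 (edgeR adjusted p = 0.237), and CDCA5, the sororin that opposes it, one of 0.07. ESPL1, the separase that cuts RAD21, had a log2 fold change of 0.08, HDAC8, which removes the acetyl groups of SMC3, one of -0.20 (edgeR adjusted p = 0.193), and the shugoshin gene SGOL1 one of 0.04. The germline counterparts of the ring were nearly silent in these cells. RAD21L1 had 1 count in a single control library and none elsewhere, CTCFL at most 3 counts and STAG3 at most 7 counts in a library, all below the filter, and SMC1B and REC8 were at no more than 2.05 CPM in any library and did not pass the test.

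No gene of the related SMC complexes passed the test. Of 17 genes of condensin and of the SMC5/6 complex, 0 were called by edgeR and 0 by DESeq2, while 3 had an unadjusted p under 0.05 by edgeR, and their log2 fold changes lay between -0.29 (SMC6) and 0.22 (SMC5) with a median of 0.01. Of 7 other factors found at loop anchors and promoters, 2 were called by edgeR, both lower. Of all genes tested, 17.0% were called and 8.27% were called lower, and nothing is read from these counts about either list. MAZ, a zinc finger protein described as a partner of CTCF, was at 253, 214 and 226 CPM in control libraries, against 185, 147 and 174 CPM in silenced libraries, a log2 fold change of -0.45 (SE 0.0970, edgeR adjusted p = 0.0105). PATZ1, a related zinc finger protein, had a log2 fold change of -0.39 (edgeR adjusted p = 0.02), which missed the threshold without control replicate 1 (0.0504), control replicate 3 (0.0832) or silenced replicate 1 (0.0595). YY1 (-0.13) and ZNF143 (0.03) did not pass the test.

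**Figure D4:**
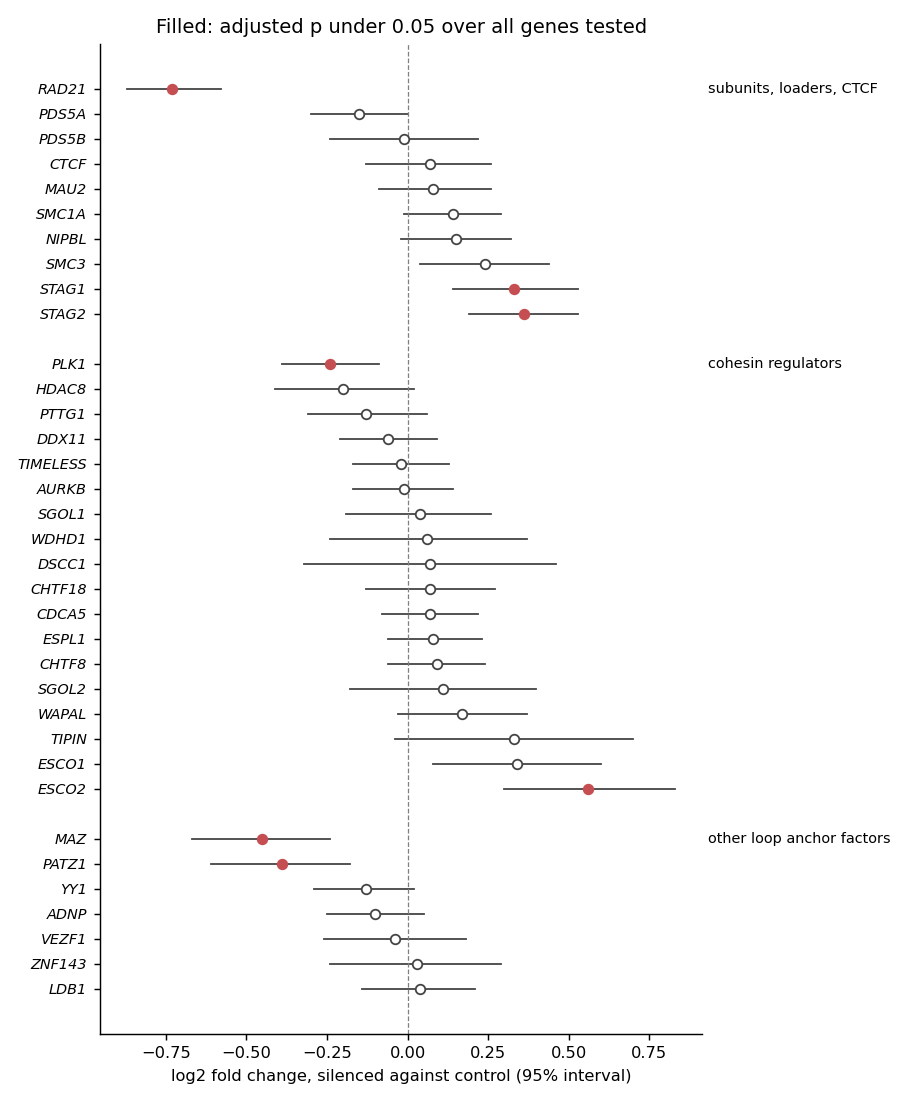
Log2 fold change of the 10 genes, of 18 cohesin regulators and of 7 other loop anchor factors, with horizontal lines for the 95% interval of the edgeR fit and filled circles for an adjusted p under 0.05 over all genes tested. RAD21 at -0.73 lies apart from the other 9 cohesin genes, whose values run from -0.15 to 0.36.

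Genes of the cohesin cycle are partly expressed by phase of the cell cycle, so cell cycle markers were counted beside them. Of 12 S phase markers, 0 were called by edgeR, 1 had an unadjusted p under 0.05 (TYMS) and DESeq2 called the same gene, and the summed level of the list was between 2740 and 2810 CPM in control libraries, against a range between 2770 and 2880 CPM in silenced libraries. Of 12 G2/M markers, 8 had log2 fold changes above 0 and 4 below 0, and edgeR called CENPF (log2 fold change 0.34, edgeR adjusted p = 0.00766). Beside these counts, edgeR called 17.0% of all genes tested. CDC20 had a log2 fold change of -0.23 (edgeR adjusted p = 0.0546) and was called lower by DESeq2 (adjusted p = 0.041) and with the replicate number as a block (edgeR adjusted p = 0.0272), and CCNB1 had one of -0.16 (edgeR adjusted p = 0.127). The G2/M list summed to between 2320 and 2510 CPM in control libraries, against a range between 2590 and 2680 CPM in silenced libraries. The part of these differences in the values of RAD21, STAG1, STAG2 and ESCO2 was not tested. CENPF alone had means of 373 CPM in control and 473 CPM in silenced libraries, so that the sum is no uniform measure of the list.

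The 3′-UTRs of the members were searched for CCAATAA, a 7-base sequence picked because mRNAs that carry it had lower values in earlier results of these data. In the main transcript of each gene, RAD21 held it 1 time in a 3′-UTR of 1565 bases, and the other 9 members did not hold it, with 3′-UTRs of 334 (SMC3) to 5954 (SMC1A) bases. Among 11483 tested mRNAs with an annotated 3′-UTR, 10.4% held it. The median log2 fold change was -0.11 for mRNAs with it and 0.01 for those without it. RAD21 was itself lower in the data from which the sequence was picked. Its match is thus not independent of that choice and lends no weight to a link. The overlapping sequence CAATAAA, searched in the same 3′-UTRs, was absent from RAD21 and was found 1 time each in SMC1A, NIPBL, PDS5A and PDS5B. Its share over all tested mRNAs was not counted, and nothing is read from where it was found. The match of RAD21 is given as a description, and its part in the level of RAD21 was not tested.

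**Figure D5:**
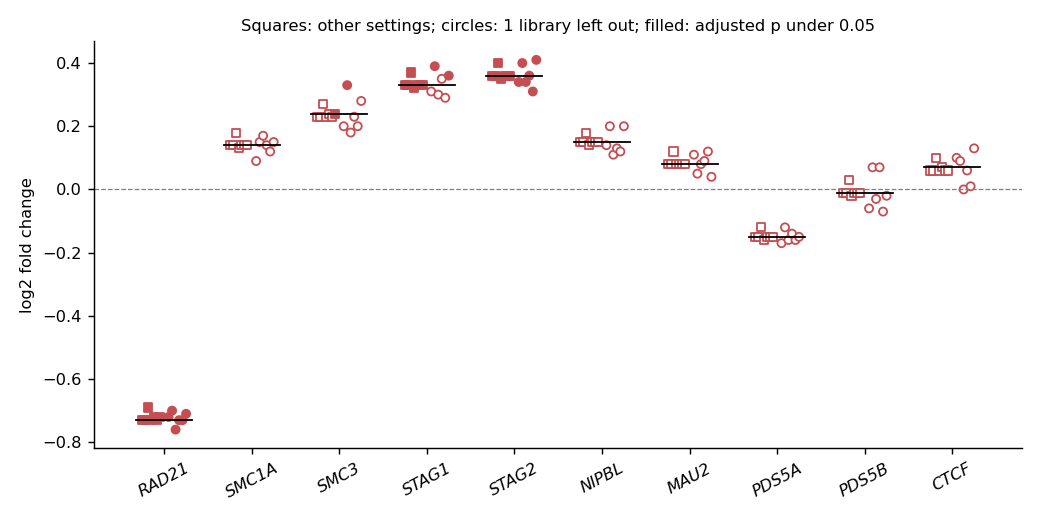
Log2 fold change of each of the 10 genes in the main fit (line), in other settings (squares) and with 1 library left out (circles), filled where the adjusted p was under 0.05. All points of RAD21 lie between -0.76 and -0.69 and those of STAG2 between 0.31 and 0.41, and both are filled throughout, while STAG1 and SMC3 have filled and open points.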

How the data were processed

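The authors mapped Ion Proton reads of total RNA and counted them per gene with MapSplice, and the deposited values are raw counts for 40173 genes without normalization. The build GRCh37 is from the submitters' processing notes. The annotation and the treatment of strands and multiple matches are not given in the sources used here. Library totals were between 9738291 and 17742643. Libraries of 1 group were not duplicates of each other (chi-square per degree of freedom 4.18 to 29.2 over pairs). Pairs with control replicate 3, the library with the largest total, gave 29.2 and 24.7, while the other pairs gave 4.18 to 10.3.

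Groups were compared with edgeR 4.0.16 in R 4.3.3 (filterByExpr, TMM, quasi-likelihood F test, Benjamini-Hochberg over 15250 genes). Standard errors were derived from the fold change and its F statistic. A gene was called at an adjusted p under 0.05, and the fold change of 2 in the study's methods was applied as a second rule. edgeR and DESeq2 were tested beforehand on simulated data with known changes and the same dispersion for every gene. At a fold of 1.5, edgeR found 39 and DESeq2 34 of 50 changed genes. At a fold of 0.667 they found 36 and 32 of 50. Smaller changes, such as those of most members here, were not simulated, so how often they would be found is not known. Ratios were tested with scipy 1.17.1.

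Alternatives were DESeq2 1.42.0, RLE factors, library size only, every gene with a count, at least 10 counts in every library, mRNA rows only, the replicate number as a block, each library left out, and stricter thresholds. Named were the 10 genes, FAM83H-AS1, the called genes of each list (at most 6), a few of the least changed and the 5 genes most like RAD21. Genes named beyond this rule (PCCB, MIR3610 and values of list genes that did not pass) were chosen after their values were seen. The members and lists were chosen with earlier results of these data known. Transcripts were those of GENCODE 29 (the principal, then the longest transcript of a gene), and SGOL1, SGOL2, WAPAL, NDNL2, ANKRD32 and FAM178A were matched as older symbols. A further gene of the loop anchor list is not reported here.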

Additional observations from a re-analysis of the deposited data

How the results depend on the processing

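The call for RAD21 and STAG2 held under DESeq2, other scalings, other filters, mRNA rows only, the replicate block and with any 1 library left out. Over these fits the log2 fold change of RAD21 ran from -0.76 to -0.69 and that of STAG2 from 0.31 to 0.41. The number of cohesin genes called was 3 in each of these alternatives but the block (4) and the fits with 1 library left out (2 to 4). It was 2 at an adjusted p under 0.01 and 0 when a fold change over 2 was required as well. Their median log2 fold change stayed between 0.10 and 0.15, and was 0.10 to 0.14 with 1 library left out. FAM83H-AS1 was at -1.82 to -1.64 in the same fits. PDS5B, at -0.01, was above 0 with library size only (0.03) and without control replicate 2 or silenced replicate 1 (0.07 each, and -0.07 to 0.07 over all fits with 1 library left out).

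For the cohesin regulators, 1 gene was called with library size only, 0 at an adjusted p under 0.01 and 0 with a fold change over 2, and 1 to 2 with 1 library left out. For the loop anchor factors the count was 0 under both stricter thresholds and 1 to 2 with 1 library left out. Of the RAD21 neighbours 0 passed the fold change over 2, and the count with 1 library left out was 1. A stricter threshold can only lower a count by construction. The cause of the changes with library size only or with 1 library left out was not tested.

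Replicate numbers are shared between the groups. Across genes, the deviations of same-numbered libraries correlated at 0.32, 0.21 and -0.09, against -0.37 to 0.22 for libraries of other numbers. These values do not settle whether the numbers pair the samples. With the replicate number as a block, 3449 genes were called against 2595 without it. The block called 4 cohesin genes (SMC3 was added, with an edgeR adjusted p of 0.0272), 3 cohesin regulators (ESCO1 was added), 1 gene of condensin and SMC5/6 (NSMCE1) and 2 RAD21 neighbours (EIF3H was added). Paired by number, the difference was -0.03 for the ratio of STAG1 to STAG2 and -0.14 for PDS5A to PDS5B. A mean of paired differences equals the unpaired difference of means by construction, so these values are no check of the pairing. The ratios of RAD21 were added after the data had been seen. The 10 genes had at least 287 counts in every library, while the germline genes had at most 29 counts in a library.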

Other observations

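Among 10027 genes with a mean of at least 10 CPM, those whose log2 CPM over the 6 libraries was most like that of RAD21 were SEC23A (Pearson's r 0.9993), C8orf59 (0.9965), MAF1 (0.9958), PPIB (0.9952) and DOK7 (0.9947). The 6 libraries form 2 groups, so that the difference between groups and the shared libraries enter every such r, and 20 genes had an r above 0.99. Their own log2 fold changes differed in size, at -0.29 for SEC23A, -1.36 for C8orf59, -1.44 for MAF1, -1.23 for PPIB and -0.44 for DOK7.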
